A study of Homo sapiens with 29 samples.

Results

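Natural killer (NK) cells read stress on other cells through activating receptors, and the genes described here encode the ligands that such cells display to them. The members were taken by name as the rows of the deposited count table for MICA, MICB, ULBP1, ULBP2, ULBP3, RAET1G, PVR, NECTIN2 and NCR3LG1. All 9 were found among 28266 gene symbols, and all 9 passed the filter on low counts. RNA was sequenced from IMR90 ER:RAS cells, a human lung fibroblast line with a retroviral fusion of the estrogen receptor hormone-binding domain and mutant RAS. The fusion is switched on with 4-hydroxytamoxifen (4OHT), which drives the cells into oncogene-induced senescence. DMSO_siNT held cells given the solvent DMSO and non-targeting siRNA, and 4OHT_siNT held cells given 4OHT and non-targeting siRNA. 4OHT_siSMARCA4 held cells given 4OHT and siRNA against SMARCA4, an ATPase of the SWI/SNF chromatin remodeller. Each group had 6 libraries, and the labels give them as this line at day 7, except for a 4OHT_siSMARCA4 library that matched no sample title. Every group mixed siRNAs numbered 2 and 4, and all libraries with a label came from derivatives of a single fibroblast line, in culture without NK cells.

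NKG2D on NK cells binds MICA, MICB and the ULBP family, to which RAET1G belongs. DNAM-1 binds PVR (CD155) and NECTIN2 (CD112), both of which are also bound by the inhibitory receptor TIGIT. NKp30 binds NCR3LG1 (B7-H6). Several of these genes are known to respond to DNA damage, heat shock or proteotoxic stress, and their proteins can be shed from the surface, so a transcript level is not a surface level.

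The libraries were not alike in ways that touch these genes. Set names ended in V or VM, whose meaning is not stated. The 4OHT_siNT libraries were all VM, DMSO_siNT had 3 V and 3 VM, and 4OHT_siSMARCA4 had 3 V, 2 VM and 1 library whose column was named 1VM but matched no sample title. That library is called unlabelled here and is kept apart from the VM sets unless stated. Total counts ranged from 9657309 to 18039313. The DMSO_siNT library of siRNA 4 and set 2V stood apart: HRAS was at 436 CPM (counts-per-million, TMM scale) there and at 2165 to 2852 CPM in the other DMSO_siNT libraries, and ESR1, whose hormone-binding domain is in the fusion, was at 29.5 CPM against 1034 to 1316 CPM. These values go against its label as cells that carry the fusion. Results of the members in the 3 group comparisons that change without it are given both ways. The fits by siRNA number and by set letters, the sums per kb and the correlations kept this library and were not redone without it. The lists of other genes were likewise taken only from the fit that kept it. In 4OHT_siSMARCA4 the target SMARCA4 had a mean of 99.03 CPM (SD 27.6, n = 6), against 301 CPM (SD 20.9, n = 6) without the knockdown. Fibroblast genes were present throughout, with VIM at 4107 to 8027 CPM, and the NK genes NKG7 and GNLY had 0 counts in every library. In bulk RNA, fewer expressing cells and less RNA per cell cannot be told apart.

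The NKG2D ligand genes lie on chromosome 6 in GENCODE version 44 on GRCh38, in a pair and a cluster. MICA (31399784 to 31415315) and MICB (31494881 to 31511124) are 79.6 kb apart on the plus strand. RAET1G (149916878 to 149923121, minus strand), ULBP2 (149942014 to 149949235, plus), ULBP1 (149963943 to 149973715, plus) and ULBP3 (150061053 to 150069121, minus) span 152 kb. PVR (44643798 to 44666162) and NECTIN2 (44846175 to 44889223) are on chromosome 19, plus strand, and NCR3LG1 (17351800 to 17377341, plus) is on chromosome 11. All are protein-coding.

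Neighbours in the ULBP cluster differed in direction below, so the 150 bases before the RefSeq start (GRCh38.p14) of 3 of them are shown 5′ to 3′ on the gene's strand. They are ULBP1 (chr6:149963793-149963942, plus), ULBP2 (chr6:149941864-149942013, plus) and RAET1G (chr6:149923122-149923271, minus). Capitals mark matches on either strand to GGGCGG (a GC box), CCAAT and TTTCCCGC (an E2F motif).
ULBP1: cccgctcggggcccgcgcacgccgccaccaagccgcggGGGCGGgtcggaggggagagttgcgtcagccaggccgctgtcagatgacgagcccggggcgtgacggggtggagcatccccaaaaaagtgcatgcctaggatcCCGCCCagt
ULBP2: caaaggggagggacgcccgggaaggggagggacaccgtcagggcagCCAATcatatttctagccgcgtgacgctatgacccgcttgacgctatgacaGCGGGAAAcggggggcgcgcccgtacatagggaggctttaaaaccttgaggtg
RAET1G: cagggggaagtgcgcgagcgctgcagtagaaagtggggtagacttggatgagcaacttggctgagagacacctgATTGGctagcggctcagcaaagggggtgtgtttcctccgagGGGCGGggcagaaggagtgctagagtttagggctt
Over all 9 members, GGGCGG was present in 7 windows against 36.8% of 35116 promoters of this length, and CCAAT in 4 against 23.5%. TTTCCCGC was present in 1, that of ULBP2, against 0.869%. GAANNTTC, the core of a heat shock element, was present in 2, MICA and MICB, against 3.26%; those windows were 79.2% identical when aligned. TGANTCA (AP-1) and TGACGTCA (CRE) were in none of the 9. Some windows before the RefSeq start lay in GENCODE exons of the same gene. These were all 150 bases for MICA, 122 for NECTIN2, 112 for PVR and 59 for MICB. The windows of the other members, among them those shown, held 0 such bases. No 2 of these motifs overlapped in the windows shown, and a match is a description of letters only.

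The ligand genes differed widely in level. Levels per kb are over merged exons, and the order of genes and the sums depend on these lengths. PVR has 10427 such bases and NECTIN2 3742, and by CPM alone PVR was the higher in 4OHT_siNT (mean 256 against 180). Per kb of exon, NECTIN2 was the highest in 4OHT_siNT at 47.98 ± 3.42 CPM per kb (SD, n = 6), then MICA at 37.3 ± 4.23 and PVR at 24.6 ± 1.55. ULBP2 followed at 11.02 ± 1.42 CPM per kb, ULBP3 at 6.85 ± 1.63, ULBP1 at 5.71 ± 0.858 and MICB at 4.87 ± 0.579. RAET1G, at 0.941 ± 0.303 CPM per kb, and NCR3LG1, at 0.824 ± 0.219, were the lowest. Library ranges overlapped between NECTIN2 and MICA, between ULBP3 and ULBP1, between ULBP1 and MICB, and between RAET1G and NCR3LG1. ULBP1 ranked below MICB in DMSO_siNT, at 1.76 ± 0.721 against 6.92 ± 2.82 CPM per kb. Summed per kb, NKG2D ligand transcripts went from 39.8 to 66.6 in DMSO_siNT and from 58.1 to 76.8 in 4OHT_siNT, and MICA alone made up 56.003% ± 1.53 (SD, n = 6) of that sum in 4OHT_siNT. Reads of 72 bases cannot always separate these genes: 22.2% of the 72-base words of ULBP2 transcripts also occurred in another gene, chiefly RAET1L, which had at most 1 count in any library. The share was 18.2% for PVR, 6.14% for RAET1G, 6.48% for ULBP3, 3.47% for ULBP1 and 0.627% for NECTIN2. MICA, MICB and NCR3LG1 shared no word. For PVR, 17.7% of words were shared with an unnamed annotation entry that overlaps its exons on the same strand.

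**Figure D1:**
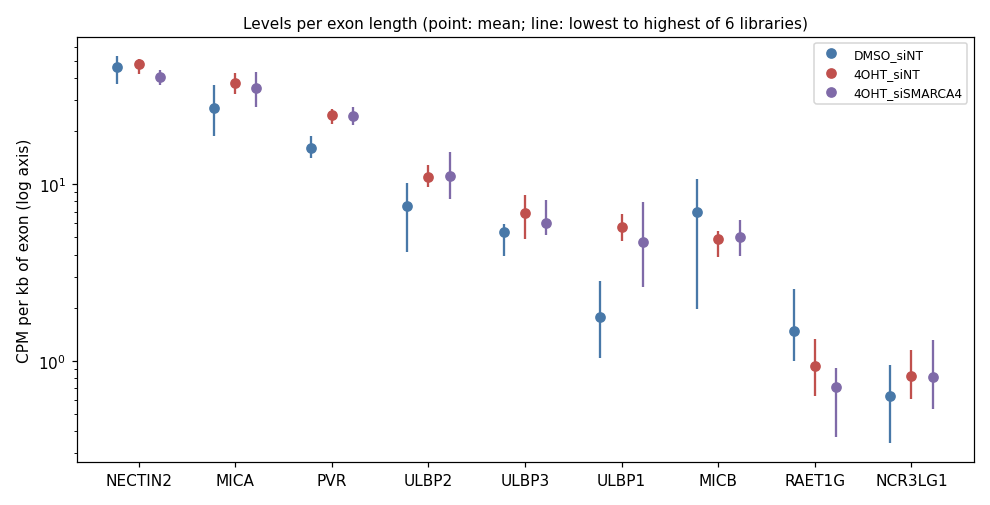
Level of each ligand gene per kb of merged exons (vertical log axis, CPM per kb) in the 3 groups, with the mean as a point and the lowest to highest of 6 libraries as a line. NECTIN2, MICA and PVR are the 3 highest in every group, and RAET1G and NCR3LG1 the 2 lowest in 4OHT_siNT.

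The first comparison asked which ligand genes differ between senescent and control cells (4OHT_siNT against DMSO_siNT). ULBP1, PVR, ULBP2 and MICA were higher, no member was called lower, and 5 of 9 did not pass the test. Of all 13136 genes tested, 23.9% were higher and 28.9% lower by the same rule (edgeR adjusted p under 0.05). The median log2 fold change of the members was 0.37, against −0.05 over all genes. In 2 members, ULBP1 and PVR, the groups did not overlap, as in 33.8% of all genes. The p-values measure the spread between these libraries, which nothing in the labels says came from separate cultures.

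Among the NKG2D ligands, ULBP1 changed most. It was at 3.35 CPM in the lowest, 5.29 in the median and 9.14 in the highest DMSO_siNT library, and at 15.3, 18.3 and 21.9 CPM in 4OHT_siNT. Every 4OHT_siNT library lay above every DMSO_siNT library. ULBP1 rose 3.21-fold, by 1.68 ± 0.28 on the log2 scale (SE; edgeR adjusted p = 6.04e-05), and by 1.69 within VM sets.

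ULBP2, a near neighbour of ULBP1, was at 5.49, 10.6 and 13.5 CPM (lowest, median, highest) in DMSO_siNT and at 12.9, 14.5 and 17.1 CPM in 4OHT_siNT. The groups overlapped, because 3 DMSO_siNT libraries reached over 13 CPM. It was higher by 0.55 ± 0.21 on the log2 scale (edgeR adjusted p = 0.0338), but by 0.35 within VM sets, where it did not pass (adjusted p = 0.0884). The call was also lost without any one of 6 libraries: DMSO_siNT 2-1V (adjusted p = 0.0687), 2-2V (0.0717) and 4-2VM (0.0665), and 4OHT_siNT 2-2VM (0.0562), 2-3VM (0.0613) and 4-3VM (0.0527).

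MICA ranged over 72.2, 97.8 and 140 CPM in DMSO_siNT and 124, 140 and 164 CPM in 4OHT_siNT. The 3 DMSO_siNT libraries of V sets were the lowest, at 72.2 to 89.003 CPM, and the VM libraries, at 107 to 140 CPM, reached into the 4OHT_siNT range. Over all libraries MICA was higher by 0.47 ± 0.16 (SE; edgeR adjusted p = 0.0178). Among VM libraries alone it differed by 0.18 (95% interval −0.06 to 0.41; adjusted p = 0.198), and the call was lost. A fit of set letters within groups gave VM minus V differences for MICA of 0.69 in DMSO_siNT (p = 0.000302, adjusted p = 0.0599) and 0.45 in 4OHT_siSMARCA4 (p = 0.0145, adjusted p = 0.423). By edgeR, 0 members were called in either, with 1 member in DMSO_siNT and 2 in 4OHT_siSMARCA4 at an unadjusted p under 0.05, and 0.324% and 0.101% of all genes were called.

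MICB, the closest relative of MICA here, went the other way. It was at 5.50, 19.9 and 29.8 CPM in DMSO_siNT and at 10.9, 14.3 and 15.2 CPM in 4OHT_siNT. The lowest value came from the DMSO_siNT library that stood apart, and the other 5 lay above every 4OHT_siNT library. With all libraries MICB differed by −0.51 ± 0.25 on the log2 scale (SE; edgeR adjusted p = 0.0869). Without that library MICB fell by 0.69 (adjusted p = 0.000376), and within VM sets by 0.76 (adjusted p = 0.000324). The members called in this comparison were then ULBP1, ULBP2, MICA, PVR, MICB and RAET1G without that library, where 58.3% of genes were called, and ULBP1, PVR, MICB, ULBP3 and NCR3LG1 within VM sets, where 53.5% were.

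ULBP3 and RAET1G sat at the threshold. ULBP3 was at 12.2, 17.2 and 18.5 CPM in DMSO_siNT and 15.3, 21.3 and 27.1 CPM in 4OHT_siNT, a log2 fold change of 0.35 ± 0.16 (SE; edgeR adjusted p = 0.0683). Its 4OHT_siNT values split by siRNA number, with 24.6 to 27.1 CPM for siNT 2 and 15.3 to 18.1 CPM for siNT 4. RAET1G, with 12 to 53 counts per library in these groups, was at 1.49, 1.76 and 3.78 CPM and then 0.937, 1.33 and 1.97 CPM. Its groups overlapped, and it differed by −0.66 ± 0.28 on the log2 scale (SE; edgeR adjusted p = 0.0568). ULBP3 became called without any one of 4OHT_siNT 4-1VM, 4-2VM and 4-3VM or 4OHT_siSMARCA4 4-3V (adjusted p = 0.0223 to 0.0473). RAET1G became called without any one of DMSO_siNT 2-2V, 4-2V, 4-2VM and 4-3VM or 4OHT_siNT 2-1VM (adjusted p = 0.0395 to 0.0468).

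Of the DNAM-1 ligands, PVR was higher and NECTIN2 was not called. PVR was at 147, 162 and 194 CPM in DMSO_siNT and 229, 257 and 278 CPM in 4OHT_siNT, with no overlap. It rose 1.54-fold, by 0.62 ± 0.09 on the log2 scale (SE; edgeR adjusted p = 8.78e-06). NECTIN2 was at 137, 173 and 198 CPM and then 157, 182 and 190 CPM, a difference of 0.06 with a 95% interval of −0.14 to 0.26 (adjusted p = 0.631). NCR3LG1, the NKp30 ligand, was at 2.18, 3.92 and 6.01 CPM in DMSO_siNT and 3.89, 5.12 and 7.35 CPM in 4OHT_siNT. Its groups overlapped, and it differed by 0.37 ± 0.27 on the log2 scale (SE; edgeR adjusted p = 0.257).

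**Figure D2:**
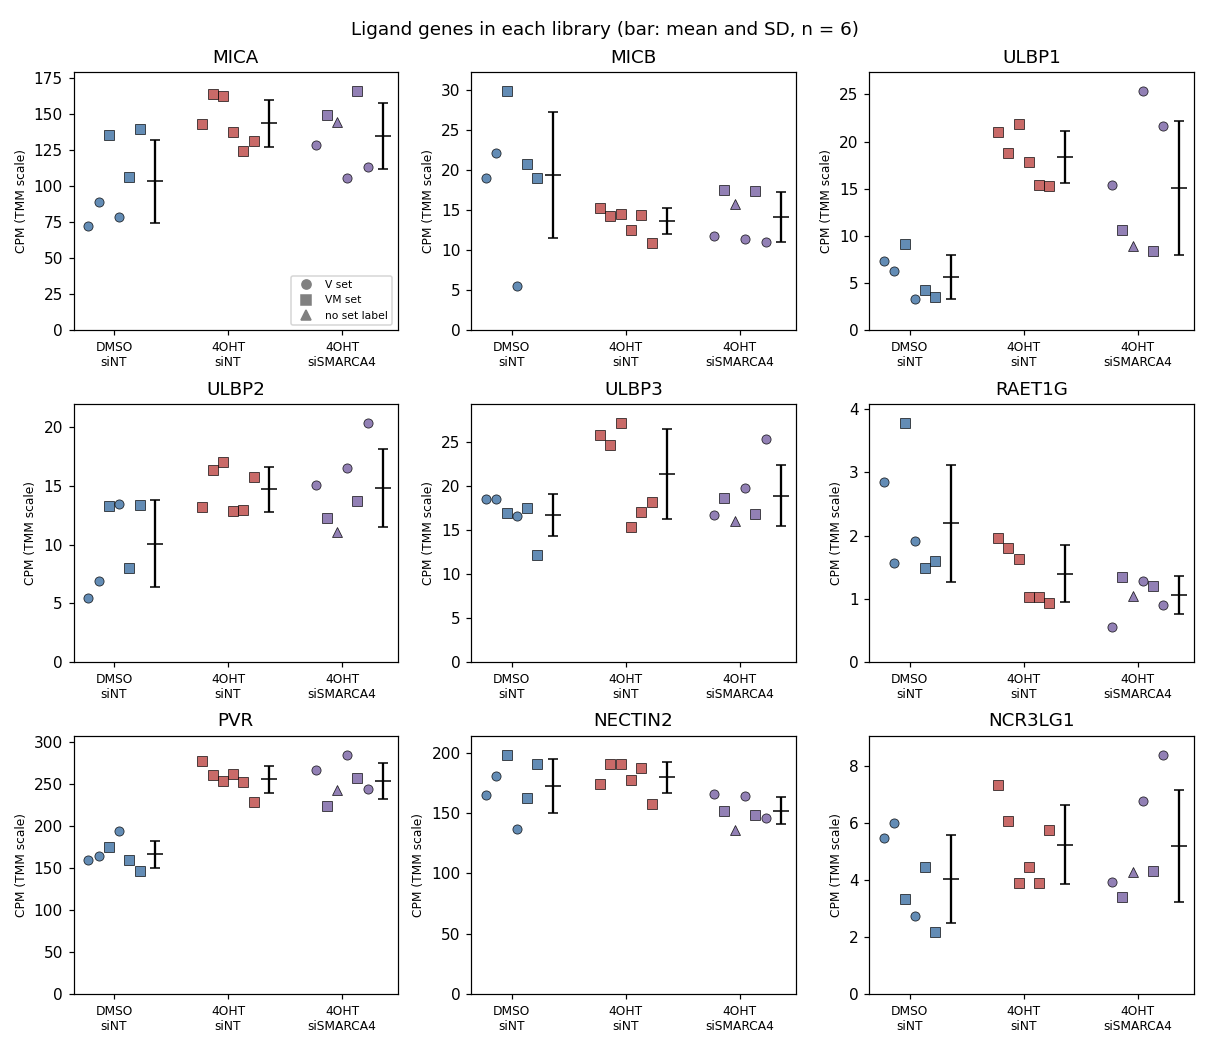
CPM of each ligand gene (vertical axis, from 0) in every library by group, with circles for V sets, squares for VM sets, a triangle for the unlabelled library, and the mean with its SD (n = 6) beside them. ULBP1 and PVR are above all DMSO_siNT libraries in every 4OHT_siNT library, and ULBP1 splits by set letters in 4OHT_siSMARCA4.

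The second comparison asked whether lowering SMARCA4 in senescent cells moves the ligand genes (4OHT_siSMARCA4 against 4OHT_siNT). By edgeR, 0 of 9 members were called, with 1 at an unadjusted p under 0.05, and 1 called by DESeq2, which called 14.9% of all genes. Of all genes, 4.99% were higher and 5.65% lower. The groups overlapped for all 9, and did not in 11.4% of all genes. The members' median log2 fold change was −0.09, against 0.01 over all genes. These libraries of 4OHT_siNT also served in the first comparison.

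The intervals limit the size of a change more tightly for some genes than others. PVR, at 225, 251 and 285 CPM (lowest, median, highest) after knockdown, differed from 4OHT_siNT by −0.01 (95% interval −0.20 to 0.17). MICA differed by −0.09 (−0.43 to 0.24), ULBP2 by 0.01 (−0.42 to 0.44) and ULBP3 by −0.18 (−0.50 to 0.15). MICB (−0.47 to 0.57), NCR3LG1 (−0.57 to 0.54) and RAET1G (−1.01 to 0.23) had wider intervals around 0.05, −0.01 and −0.39.

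NECTIN2 was the member at an unadjusted p under 0.05. It was at 136, 150 and 166 CPM in 4OHT_siSMARCA4, and 5 of the 6 4OHT_siNT libraries lay above its highest value. It differed by −0.24 ± 0.10 on the log2 scale (SE; p = 0.0209, edgeR adjusted p = 0.119). Without the DMSO_siNT library that stood apart, NECTIN2 fell by 0.25 (adjusted p = 0.020), and 24.6% of all genes were then called. DESeq2 called it as well (adjusted p = 0.0298). Over the alternatives its log2 fold change stayed negative.

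ULBP1 after knockdown divided by set letters. The V libraries were at 15.4, 21.6 and 25.4 CPM, the VM libraries at 8.38 and 10.7 CPM, and the unlabelled library at 8.97 CPM. The V values lay within or above the 4OHT_siNT range of 15.3 to 21.9 CPM, and the VM and unlabelled values lay below it and, but for 8.38 and 8.97 CPM, above all of DMSO_siNT. Over all libraries the difference was −0.28 (95% interval −0.84 to 0.29; edgeR adjusted p = 0.576). Within VM sets ULBP1 fell by 0.96 (adjusted p = 0.0201), the 1 member called there beside 21.0% of all genes. With the unlabelled library added, it fell by 0.99 (adjusted p = 0.00317), and NECTIN2 fell by 0.32 (adjusted p = 0.0139), where 30.4% of all genes were called; these are all libraries with VM in the column name. No V library of 4OHT_siNT was analysed here, so the same comparison could not be made within V sets. Between the letters, VM minus V was −1.12 for ULBP1 in 4OHT_siSMARCA4 (p = 0.00599, adjusted p = 0.307) and −0.00403 in DMSO_siNT. The difference between these did not pass (p = 0.0336, adjusted p = 0.489; 0 members called, 2 at an unadjusted p under 0.05, 0.0864% of all genes called). SMARCA4 itself was at 92.7 to 141 CPM in the V libraries of 4OHT_siSMARCA4 and at 70.4 to 87.002 CPM in the VM and unlabelled libraries; its part in the split was not tested.

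**Figure D3:**
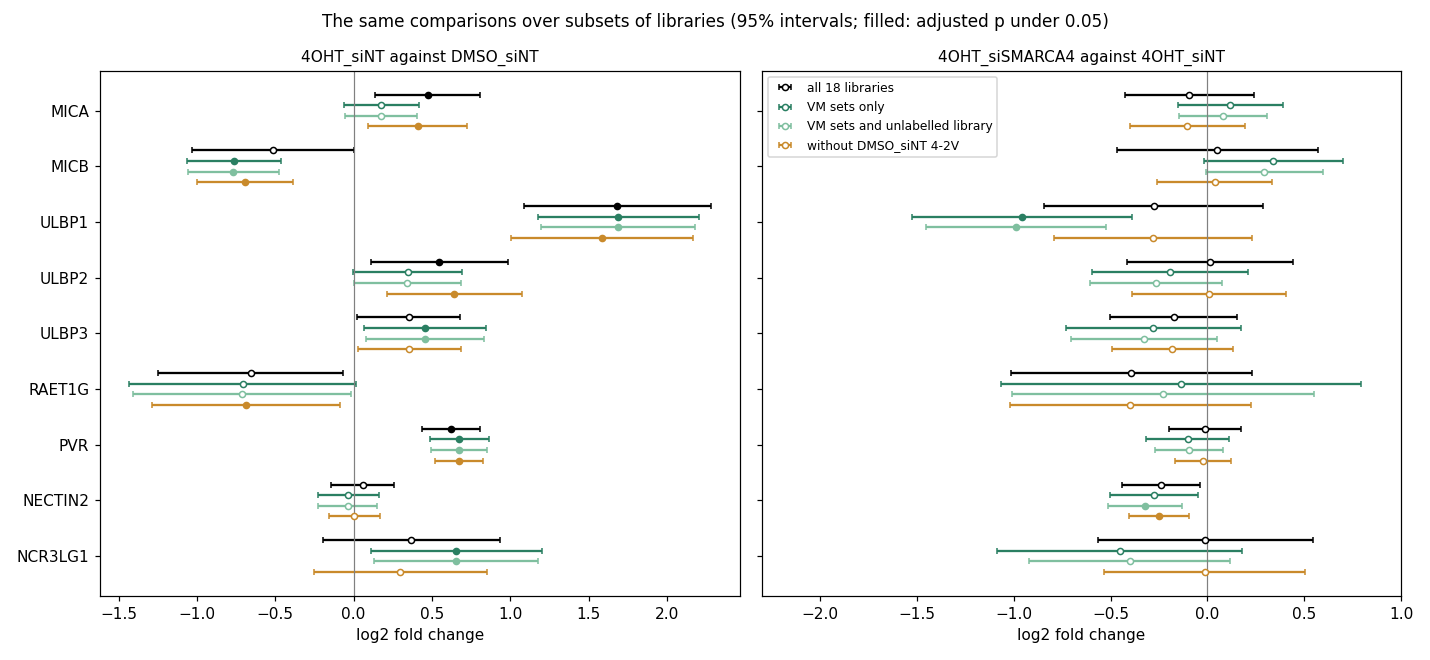
Log2 fold change (horizontal axis) with its 95% interval for each ligand gene in the first and second comparison, from all 18 libraries, VM sets only, VM sets with the unlabelled library, and all but DMSO_siNT 4-2V. ULBP1 moves from −0.28 to −0.96 after knockdown when only VM sets are used, and MICA moves from 0.47 to 0.18 between senescent and control cells.

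The third comparison set knockdown cells against control cells (4OHT_siSMARCA4 against DMSO_siNT) and shares libraries with both others. ULBP1, PVR and ULBP2 were higher and RAET1G was lower, where 23.3% of all genes were higher and 27.3% lower. The log2 fold changes were 1.40 ± 0.28 for ULBP1 (SE; edgeR adjusted p = 0.000367), 0.61 ± 0.09 for PVR (adjusted p = 1.02e-05), 0.56 ± 0.21 for ULBP2 (adjusted p = 0.0309) and −1.05 ± 0.29 for RAET1G (adjusted p = 0.00514). RAET1G was at 0.551, 1.13 and 1.35 CPM after knockdown, from 7 to 23 counts per library. PVR and RAET1G were the 2 members whose groups did not overlap, against 29.6% of all genes. Within VM sets, where 43.9% of all genes were called, PVR (0.57, adjusted p = 0.000649) and NECTIN2 (−0.31, adjusted p = 0.0464) were called and ULBP1 (0.73, adjusted p = 0.0614), ULBP2 (0.15, adjusted p = 0.596) and RAET1G (−0.85, adjusted p = 0.160) were not. With the unlabelled library added to the VM sets, ULBP1 (0.70, edgeR adjusted p = 0.0363) and MICB (−0.47, adjusted p = 0.0227) were called beside PVR and NECTIN2. ULBP2 and RAET1G were still not called. Without the DMSO_siNT library that stood apart, where 59.1% were called, MICB (−0.66, adjusted p = 0.00063) and NECTIN2 (−0.24, adjusted p = 0.0114) were called in addition to those called over all libraries. ULBP2 lost its call without any one of DMSO_siNT 2-1V, 2-2V and 4-2VM or 4OHT_siSMARCA4 4-2V and 4-3V (adjusted p = 0.0572 to 0.0791). MICA differed by 0.38 (adjusted p = 0.0549) and became called without any one of DMSO_siNT 2-2VM and 4-3VM or 4OHT_siSMARCA4 4-2V and 4-3V (adjusted p = 0.0152 to 0.0411).

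**Figure D4:**
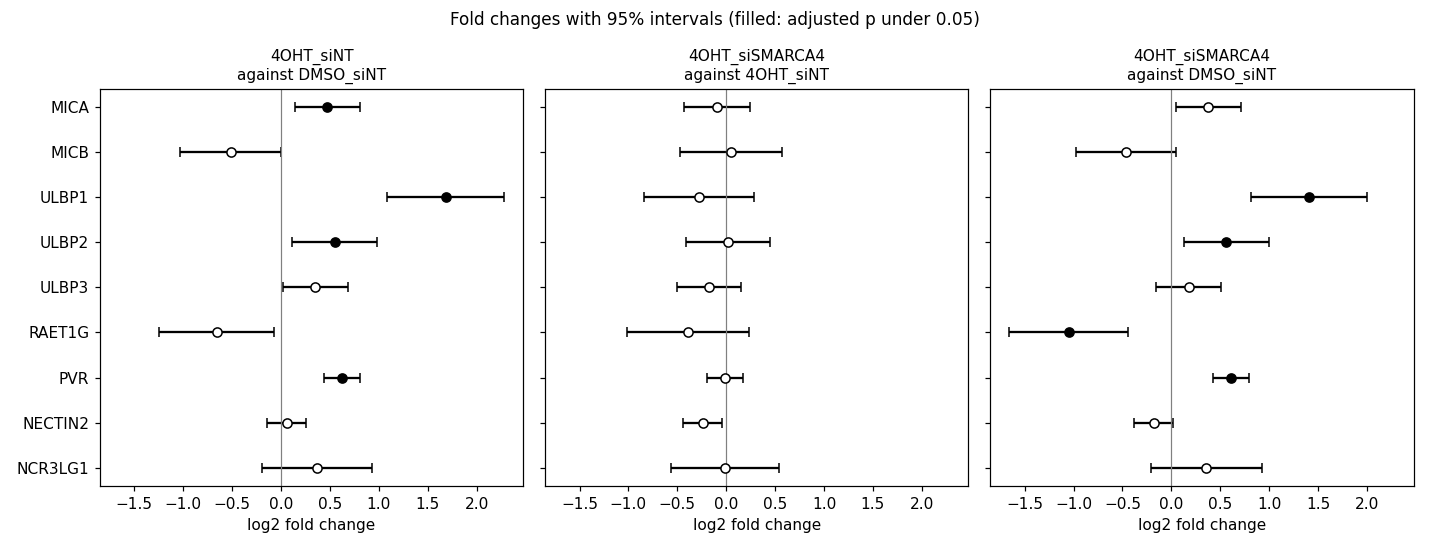
Log2 fold change (horizontal axis) of each ligand gene with its 95% interval in the 3 comparisons, filled where the edgeR adjusted p was under 0.05. The panels against DMSO_siNT have 4 filled points each, and the panel of knockdown against 4OHT_siNT has none.

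The siRNA numbers were compared in a separate fit of treatment by number. For siNT 2, 5 members were higher in 4OHT than in DMSO (ULBP1 1.45, ULBP2 0.87, PVR 0.68, MICA 0.68 and ULBP3 0.54), beside 37.2% of genes called. For siNT 4, ULBP1 (2.11) and PVR (0.58) were higher, beside 52.1%. The DMSO_siNT libraries were 2-1V, 2-2V and 2-2VM for siNT 2, and 4-2V, 4-2VM and 4-3VM for siNT 4. All 4OHT_siNT libraries were VM. The siRNA numbers therefore also differ in their mix of set letters, and siNT 4 includes 4-2V, the library that stood apart. The part of either was not tested. The difference between the numbers was called for 0 members by edgeR, with 0 at an unadjusted p under 0.05, and for 0.00% of genes. Against all 4OHT_siNT libraries, siSMARCA4_2 had 0 members called (1 at an unadjusted p under 0.05, ULBP1 at −0.64; 12.0% of genes called) and siSMARCA4_4 had 0 (0 at that level; ULBP1 at 0.01; 4.50%). Set against each other, they had 0 members called, 2 at that level (ULBP1 and NCR3LG1), and 0.00732% of genes called. Each had 3 libraries, of which 1 was a V library for siSMARCA4_2 and 2 were for siSMARCA4_4. ULBP1 was higher in V than in VM libraries within both numbers, at 15.4 against 10.7 CPM for siSMARCA4_2 (8.97 in the unlabelled library) and at 25.4 and 21.6 against 8.38 CPM for siSMARCA4_4. Between siNT 2 and siNT 4, 0 members were called in 4OHT (2 at that level; 0.0732% of genes) or in DMSO (2 at that level; 0.0512%). ULBP3 in 4OHT was the nearest, higher with siNT 2 by 0.62 (p = 0.00106, adjusted p = 0.144). DESeq2 called ULBP3 in 4OHT (adjusted p = 0.0312; 1.46% of genes) and ULBP1 in DMSO (adjusted p = 0.0331; 13.8%), and 0 members in the other comparisons above where edgeR called 0.

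The genes most like each member in log2 CPM over the 18 libraries were taken from 11506 others; these libraries fall in 3 groups, and differences between and within groups were not separated. Pearson's r was 0.965 between ULBP1 and GLCE and 0.964 with PDLIM1. It was 0.966 between PVR and SLC25A37 and 0.965 with DDI2, and 0.945 between MICB and PCBP4 and 0.935 with FAM171A2. For the remaining members the highest r was 0.902 for ULBP2 (ADIPOR1, then HOXB2), 0.901 for ULBP3 (FAM135A, then FYTTD1), 0.897 for MICA (ASGR1, then MAZ), 0.892 for NECTIN2 (CTNNBIP1, then IGFBP7), 0.870 for NCR3LG1 (LATS1, then WDR7) and 0.851 for RAET1G (PARD6G, then NUDT4). Among the members, ULBP1 and PVR had r = 0.83 over 18 libraries. MICA and MICB had r = 0.21 over 18 libraries and 0.74 over the 12 libraries given 4OHT.

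Other genes of the NK synapse were counted in lists, to be read beside the 23.9% of all genes higher and 28.9% lower in senescent cells, and the 4.99% and 5.65% after knockdown. All values for the lists were taken from the fit of all libraries. They were not taken within VM sets or without DMSO_siNT 4-2V. Of 15 other activating and co-stimulating ligands, 9 were tested, and 5 were higher and 2 lower in 4OHT_siNT than in DMSO_siNT. The adhesion ligand ICAM1 rose by 4.76 ± 0.38 (SE, edgeR adjusted p = 3.34e-09). VCAM1 fell by 3.33, from 14.1 ± 13.4 to 1.38 ± 0.302 CPM (SD, n = 6, edgeR adjusted p = 0.000103). PDGFD, a ligand of NKp44, fell by 2.59, from 9.79 ± 5.84 to 1.62 ± 0.547 CPM (SD, n = 6, edgeR adjusted p = 1.49e-05). The DMSO_siNT libraries thus differed widely in both, with an SD for VCAM1 close to its mean. After knockdown, TNFSF9 (the 4-1BB ligand) rose by 1.16 (adjusted p = 0.0202), the 1 gene of the list called. RAET1E and RAET1L, the remaining NKG2D ligand genes, had at most 13 and 1 counts in any library and were not tested.

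Of 16 ligands of inhibitory receptors, 12 were tested, and 2 were higher and 4 lower in senescent cells. PDCD1LG2, which encodes PD-L2, fell by 1.79, NECTIN3 fell by 1.17, and CLEC2D, the ligand of NKR-P1A, rose by 1.48. After knockdown HLA-E, the ligand of NKG2A, rose by 0.39 (edgeR adjusted p = 0.0307) and NECTIN3 by 0.40 (adjusted p = 0.0285), while CDH2 fell by 0.82 (adjusted p = 0.0172).

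All 8 genes listed for the shedding or trimming of ligands, among them the inhibitor TIMP3, were tested, with 1 higher and 5 lower in senescent cells. MMP14, a membrane protease known to shed MICA, rose by 1.87, from 791 ± 289 to 2885 ± 324 CPM (SD, n = 6). TIMP3, an inhibitor of ADAM17, fell by 0.86, and the peptide-trimming enzyme ERAP1 fell by 0.76. The other lower genes were ADAM9, ADAM10 and PDIA6, listed as shedding proteins, which fell by 0.65, 0.41 and 0.28. TIMP3 was the 1 gene of the list called after knockdown, where it fell by a further 0.63 (edgeR adjusted p = 0.00513).

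Among 11 death receptor and granule defence genes, 5 were higher and 1 lower in senescent cells. The TRAIL receptors TNFRSF10B and TNFRSF10A rose by 1.34 and 1.30, and the interferon-gamma receptor chain IFNGR1 by 0.53. FAS fell by 0.47 after knockdown (edgeR adjusted p = 0.0303). Among 14 reported inducers of NKG2D and DNAM-1 ligand genes, 7 were higher and 2 lower in senescent cells, where E2F1 fell by 1.15 and JUN and NFKB1 rose by 1.00 and 0.97. After knockdown ATF4 rose by 0.35 (adjusted p = 0.0129) and CHEK1 fell by 0.52 (adjusted p = 0.00932).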

How the data were processed

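The siRNAs were given to IMR90 ER:RAS cells 1 day before 4OHT or DMSO, and RNA was taken 7 days after it. According to the study's methods and the submitters' processing notes, directional libraries of polyadenylated RNA were read from one end over 72 bases and aligned with STAR 2.7.8a to hg38, and the study tested with DESeq2 1.36.0. The counting program, annotation and strand setting are not given in the sources used here. The authors deposited raw counts per gene, 36 columns of 18 libraries in 2 lanes, which were summed. Of 29 labelled samples, 17 matched a column, and 1 further library of 4OHT_siSMARCA4 with siRNA 2 had a column named 1VM that matched no title and was used without a set label.

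Genes were filtered with filterByExpr (minimum count 10), which kept 13136 genes and 99.9% of counts, scaled with TMM, and compared by quasi-likelihood (edgeR 4.0.16, R 4.3.3), all 18 libraries in 1 fit, no covariate, with Benjamini-Hochberg adjustment over all genes; calls are at an adjusted p under 0.05. Since all members passed the filter, no separate permutation test was needed. Alternatives were DESeq2 1.42.0, other scaling, filters and thresholds, subsets of sets, a replicate block and leaving out each library. Those with set letters as a covariate, only V sets, or the unlabelled library beside VM sets were chosen after seeing the data, as were the fits of VM against V. The steps were tested on simulated data. No pair of libraries within a group agreed within sampling noise. Set numbers did not pair the libraries. Exon lengths and positions are from GENCODE version 44, and promoter sequences, found for all 9 members, from RefSeq.

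The members and the gene lists were chosen with earlier results of these data known. Genes named are all members, SMARCA4, ESR1 and HRAS, list genes called after knockdown, and the 2 genes most correlated with each member. From each list, the 3 called genes with the largest change in senescent cells and a mean log2 CPM above 1 are also named. VIM, NKG7 and GNLY are markers. RAET1E, RAET1L, ADAM9, ADAM10 and PDIA6 were named after their values were seen.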

Additional observations from a re-analysis of the deposited data

Results flagged for a closer look

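Of 27 sets of 6 values (9 genes in 3 groups), 2 had an end value far from the rest by Dixon's test, where chance gives about 1.35. MICB in the DMSO_siNT library of siRNA 4 and set 2V was the lowest, at 5.50 CPM, with a gap to the next library of 0.729728 of the whole range. This is the library with low HRAS and ESR1. ULBP3 in the DMSO_siNT library of siRNA 4 and set 3VM was the lowest, at 12.2 CPM, with a gap of 0.740956 of the range.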

How the results depend on the processing

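The count of 4 members called between senescent and control cells became 2 at an adjusted p under 0.01 and 2 under a replicate block on the set label, and was 3 to 6 when each library was left out. The count of 0 after knockdown became 1 by DESeq2, 1 with only the 2 groups fitted, 1 in VM sets and 2 in VM sets with the unlabelled library, and was 0 to 1 on leaving out a library. The count of 4 between knockdown and control cells became 2 with the replicate block, 2 in VM sets and 1 in V sets, and was 3 to 6 on leaving out a library. Between siNT 2 and siNT 4, DESeq2 called 1 member in 4OHT, where it called 1.46% of all genes, and 1 in DMSO, where it called 13.8%. Same-numbered sets did not deviate together (correlations −0.23 to 0.27). Under the block, MICA and ULBP2 lost their calls between senescent and control cells (0.20, adjusted p = 0.334, and 0.49, adjusted p = 0.129), as did ULBP2 and RAET1G between knockdown and control cells (0.37, adjusted p = 0.254, and −0.63, adjusted p = 0.236).

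Signs changed in values that were not called. NECTIN2 between senescent and control cells was −0.0342 in VM sets and −0.0363 with the unlabelled library. After knockdown, MICA was 0.12 with the block, 0.12 in VM sets, 0.0790 with the unlabelled library and 0.21 with set letters as a covariate. ULBP2 was −0.12 with the block, −0.19 in VM sets, −0.27 with the unlabelled library, −0.0288 with siRNAs of a set summed and −7.49e-05 with at least 10 counts in every library, a filter that RAET1G did not pass. RAET1G was 0.0220 with the block, and PVR and NCR3LG1 were 0.00924 and 0.00882 with all genes kept. On leaving out a library, MICB ran from −0.0291 to 0.11, ULBP2 from −0.0987 to 0.0729, PVR from −0.0582 to 0.0114 and NCR3LG1 from −0.199 to 0.0991. The causes were not tested. Depth limits RAET1G most, with 7 to 53 counts per library.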
